A study of Mus musculus with 8 samples.

Results

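Fc receptors and monocyte surface markers were examined in mouse leukemia cells by RNA-seq. The 10 genes were chosen by name. They were the Fc receptor chains Fcgr1, Fcgr2b, Fcgr3 and Fcer1g, the receptors Clec12a, Cd33 and Cd300a, and the myeloid markers Adgre1, Cd68 and Ly6e. Of these, 9 have a row among the 12823 gene rows of the count table and all 9 were tested. Fcgr1 was not analysed here. The cells were bone marrow progenitors of the mouse transduced with MLL-AF9, a fusion oncogene that causes acute myeloid leukemia (AML), together with GFP, and GFP+ cells were sorted from the bone marrow of C57BL/6 recipients. New AML (4 libraries) was taken from newly generated leukemia that arose about 2 months after transplantation into sublethally irradiated mice, and aggressive AML (4 libraries) was taken after 5 serial transplantations, which the methods place in non-irradiated recipients. Both groups carry the same retroviral fusion and reporter, no library without MLL-AF9 was compared, and the methods describe the mice of all experiments as young adults, with no age for single libraries. The labels call the libraries biological replicates without tying each to its own mouse, so p-values measure the spread between these libraries.

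Fc receptors bind the constant part of antibodies. Activating receptors such as the IgG receptor encoded by Fcgr3 signal through the common gamma chain Fcer1g, which carries an immunoreceptor tyrosine-based activation motif, whereas Fcgr2b carries an inhibitory motif that recruits phosphatases. Monocytes and macrophages use these receptors to take up antibody-coated particles, and the balance of activating and inhibitory chains sets how readily they respond. Clec12a (a C-type lectin also known as CLL-1) and Cd33 (a sialic acid-binding lectin of the Siglec family) are surface receptors of myeloid progenitors and monocytes that are used as antibody targets in human AML. Adgre1 encodes F4/80, a marker of mature mouse macrophages.

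Library totals lay between 7805544 and 9697777 counts. Markers of myeloid leukemia cells had reads in every library, among them Ptprc (273 to 358 CPM), Mpo (1570 to 2860 CPM) and Hoxa9 (292 to 359 CPM). CPM is the count scaled to a common library total. Other markers separated the groups. Itgam (393 to 579 CPM in new AML, 299 to 341 in aggressive AML) and Hoxa10 (166 to 194, 117 to 130) were lower in aggressive AML. Kit (79.5 to 122, 139 to 175) and Meis1 (97.0 to 105, 113 to 178) were higher in it. The Y-linked genes Ddx3y, Eif2s3y, Kdm5d and Uty together had 2315 to 2574 counts in each new AML library and 0 in each aggressive AML library. Aggressive AML is described as descending from the newly generated leukemia, and the mice of both groups are given as male. The cause of the Y-linked difference was not tested. A difference in origin or clone of the cells that follows the group cannot be told apart from the group. New AML replicate 3 had the highest CPM of its group in all 33 tested interferon response genes, against 28.2% of all tested genes. Sequencing batch is not given in the labels, so a batch that follows the group cannot be told apart from the group.

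Of the 9 tested genes, 2 rose (Clec12a and Cd33) and 2 fell (Adgre1 and Ly6e) in aggressive AML, and the Fc receptor chains Fcgr2b, Fcgr3 and Fcer1g, together with Cd68 and Cd300a, were not called. The call rule was an adjusted p under 0.05 in edgeR's quasi-likelihood test with Benjamini-Hochberg adjustment over 12494 tested genes, and it called 8.15% of all tested genes higher, 10.2% lower and 18.4% in either direction. Complete separation of the 4 and 4 libraries was seen for 1 higher gene (Clec12a) and 2 lower genes (Adgre1 and Ly6e), where 9.76% of all tested genes were apart in the higher and 12.0% in the lower direction. The median log2 fold change of aggressive AML over new AML was -0.06 over the 9 genes and 0.00 over all tested genes. In bulk libraries, fewer cells of a type and less RNA per cell cannot be told apart.

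**Figure D1:**
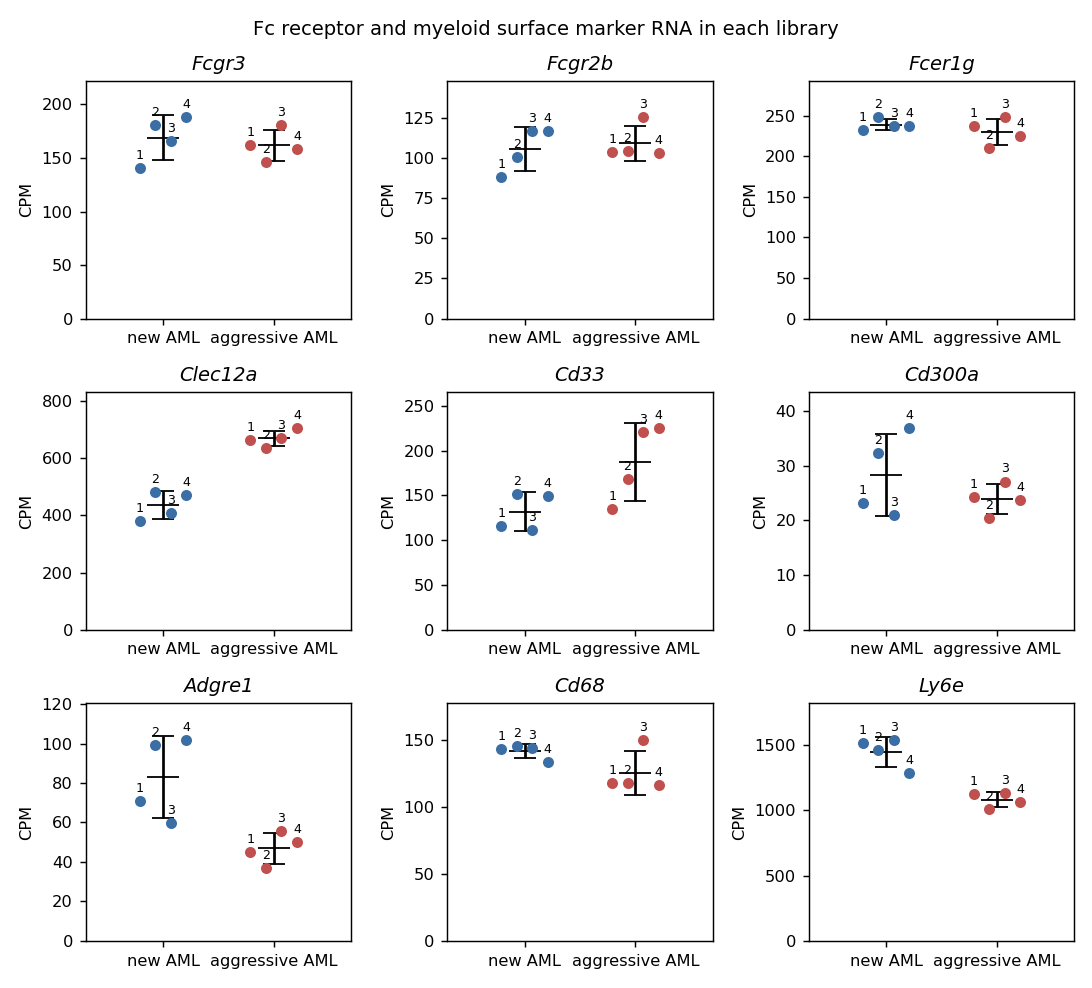
Each panel plots the CPM (counts scaled to a common library total, vertical axis from 0) of a gene in the 4 new AML libraries (blue) and the 4 aggressive AML libraries (red), with replicate numbers above the points and the mean and SD in black. Clec12a sits at 637 CPM or more in aggressive AML and at 481 CPM or less in new AML, while the groups overlap for Fcgr3, Fcgr2b and Fcer1g.

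Promoter sequence was read for 7 of the 9 tested genes, to show what stands before the genes that rose, Clec12a and Cd33, and those that were not called. RefSeq sequence (GRCm38.p6) of the 250 bases before the transcript start was searched on both strands for short motifs. Those of myeloid transcription factors were the PU.1 box GAGGAA, the RUNX site TGTGGT and the C/EBP site TTGCNNAA. Those of interferon responses were the interferon gamma activated (GAS) element TTCNNNGAA and the interferon-stimulated response element (ISRE) core GAAANNGAA, which can overlap each other. Among all 32851 promoters of the same length, 23.3% held the PU.1 box, 14.0% the RUNX site, 9.56% the C/EBP site, 7.02% the GAS element and 7.13% the ISRE core. Stretches of 30 bases around the matches follow in the direction of the gene, 5′ to 3′, with the matched letters in capitals. The first 4 come from the genes that rose and the last from Fcgr3.
Clec12a, 158 to 129 bases before the start (chr6:129350086-129350115, plus strand), RUNX and C/EBP: ctgTGTGGTaggagcaaaTTGCGCAActcg
Clec12a, 66 to 37 bases before the start (chr6:129350178-129350207, plus strand), PU.1 box on both strands: aatatGAGGAAgaaaagtgTTCCTCtttca
Cd33, 238 to 209 bases before the start (chr7:43533380-43533409, minus strand), PU.1 box: acagtggaatggGAGGAAgccacaaagaag
Cd33, 100 to 71 bases before the start (chr7:43533242-43533271, minus strand), RUNX: aagttccttctcTGTGGTcaattactctct
Fcgr3, 30 to 1 bases before the start (chr1:171059404-171059433, minus strand), C/EBP and PU.1 box: ggTTAAGCAAgagagtccatttccTTCCTC

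Clec12a and Cd33 each held a PU.1 box and a RUNX site, a pair found in 3.21% of all promoters. A PU.1 box and a C/EBP site, a pair found in 2.07% of all promoters, stood together before Fcgr3, Cd68 and Cd300a and also before Clec12a, and the windows of Fcgr2b and Fcer1g held none of the 5 motifs. Both Clec12a stretches and the Cd33 stretch with the PU.1 box lie in exons annotated in GENCODE M21. All 250 bases of the Clec12a window and 57 of the Cd33 window lie in exons of their genes. The windows of Clec12a, Cd33, Fcgr2b and Fcgr3 lie inside the annotated span of their genes. Such matches describe letters in the window and are not evidence of binding. No promoter sequence was read for Adgre1 and Ly6e, the genes that fell, so they were not searched for motifs.

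Among the Fc receptor chains, Fcgr3 (chromosome 1, 171051174 to 171064935, GRCm38), the activating IgG receptor also called CD16, measured 140.4, 181, 166 and 188 CPM in new AML replicates 1 to 4 and 162, 146, 180.3 and 158 CPM in aggressive AML replicates 1 to 4. The aggressive values all lay inside the range of new AML. Means were 169 ± 21.0 and 162 ± 14.1 CPM (SD, n = 4), and the fitted log2 difference was -0.06 (95% interval -0.26 to 0.14, edgeR adjusted p = 0.697), and it lay between -0.14 and -0.0055 when each library was left out in turn. Changes beyond a 1.10-fold increase or a fall to 0.832 of the new AML level lie outside that interval.

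Fcgr2b (chromosome 1, 170958617 to 170976547), the inhibitory IgG receptor, measured 87.9, 101, 117 and 117 CPM in new AML and 103, 104, 125 and 103 CPM in aggressive AML. New AML replicate 1 was the lowest and aggressive AML replicate 3 the highest of the 8 libraries, and the groups overlapped. The log2 fold change was 0.05 (95% interval -0.17 to 0.26, edgeR adjusted p = 0.789).

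Fcer1g (chromosome 1, 171229572 to 171234365), the signalling gamma chain that activating Fc receptors need at the surface, measured 233, 248, 237 and 238 CPM in new AML and 237, 209.7, 248 and 224 CPM in aggressive AML. It varied least among the 9 genes in new AML, with a coefficient of variation of 2.71%, and its log2 fold change was -0.06 (95% interval -0.21 to 0.10, edgeR adjusted p = 0.624). The levels of Fcer1g overlapped between the groups.

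The balance of activating to inhibitory chains was measured within each library as a ratio of counts, which needs no scaling between libraries. Fcgr3 counts over Fcgr2b counts were 1.60, 1.80, 1.42 and 1.61 in new AML and 1.57, 1.41, 1.44 and 1.53 in aggressive AML, with means of 1.61 ± 0.154 and 1.49 ± 0.0761 (SD, n = 4). The ratios overlapped, and the log2 difference of -0.11 gave p = 0.171 in a two-sided exact permutation test over the 70 choices of 4 libraries (adjusted p = 0.343 over 2 ratios), where the smallest possible p is 0.0286. The difference was -0.053 without new AML replicate 2 and -0.17 without new AML replicate 3 (exact permutation p = 0.0571). With a library left out, 0.0571 is the smallest p this test can give, so no such fit can pass 0.05. Fcer1g counts over the sum of Fcgr3 and Fcgr4 counts averaged 1.39 ± 0.169 in new AML and 1.38 ± 0.0351 in aggressive AML, a log2 difference of 0.00 with an exact permutation p = 1. Because counts were not divided by transcript length, the ratios say nothing of the number of molecules. The close copies Fcgr3 and Fcgr2b can share reads: 9.58% of the 50-base stretches of the Fcgr3 transcripts also occur in Fcgr2b. Fcgr2b overlaps Gm38204 on the other strand and Fcgr3 overlaps Mir6546, and whether counting used the strand is not given in the sources used here.

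The gene that rose most was Clec12a (chromosome 6, 129342691 to 129365303), which encodes an inhibitory C-type lectin receptor of granulocytes, monocytes and their progenitors. It measured 381, 481, 409 and 471 CPM in new AML and 665, 637, 670.4 and 704 CPM in aggressive AML. Every aggressive AML library lay above every new AML library. Means were 436 ± 48.1 and 669 ± 27.6 CPM (SD, n = 4), so that the fitted log2 difference was 0.62 (SE 0.08, edgeR adjusted p = 9.93e-05), or 1.54-fold. Of all tested genes, 87.2% had a smaller absolute fold change.

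Cd33 (chromosome 7, 43524216 to 43544428) measured 115, 152, 111 and 149 CPM in new AML and 135, 168, 221 and 225 CPM in aggressive AML. Aggressive AML replicate 1 lay below new AML replicates 2 and 4, so the groups overlapped. The log2 fold change was 0.51 (SE 0.15, edgeR adjusted p = 0.0265). This call was lost without new AML replicate 1 (adjusted p = 0.0824), new AML replicate 3 (0.0679), aggressive AML replicate 3 (0.0618) or aggressive AML replicate 4 (0.0710), and the log2 fold change was then 0.41 to 0.45.

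Cd300a (chromosome 11, 114890041 to 114904654), an inhibitory receptor that binds phospholipids of dying cells, was the least abundant of the 9 genes. It measured 23.2, 32.2, 21.0 and 36.8 CPM in new AML and 24.3, 20.4, 27.1 and 23.7 CPM in aggressive AML, with the spread of new AML covering 3 of the 4 aggressive values. The log2 fold change of -0.24 was not called (95% interval -0.60 to 0.11, edgeR adjusted p = 0.326), and it was -0.09 without new AML replicate 4 and -0.36 without new AML replicate 3, uncalled in both. Of these receptors, Clec12a was called higher with the groups apart, Cd33 was called higher with overlapping groups, and Cd300a was not called. The Cd33 call was lost in 4 of the 8 fits that left out a library.

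The largest change of the 9 was that of Adgre1 (chromosome 17, 57358691 to 57483527). It measured 71.0, 99.4, 59.9 and 102 CPM in new AML and 44.9, 36.9, 55.5 and 50.2 CPM in aggressive AML. All aggressive AML values lay below all new AML values, with a gap of only a few CPM between aggressive AML replicate 3 and new AML replicate 3. Means were 83.1 ± 20.9 and 46.9 ± 7.93 CPM (SD, n = 4), so that the fitted log2 difference was -0.83 (SE 0.16, edgeR adjusted p = 0.00245), or 1.77-fold lower.

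Ly6e (chromosome 15, 74955051 to 74959905), which encodes a small lipid-anchored surface protein and is inducible by interferon, was the most abundant of the 9 genes. It measured 1513, 1461, 1543 and 1285 CPM in new AML and 1125, 1008, 1136 and 1063 CPM in aggressive AML, without overlap. The log2 fold change was -0.42 (SE 0.08, edgeR adjusted p = 0.00125). The summed CPM of the interferon response list, of which 28 of 33 tested genes fell and 0 rose (median log2 fold change -1.06), was 1145 to 2025 in new AML and 756 to 866 in aggressive AML. Without new AML replicate 3, the library with the highest interferon sum, the log2 fold change of Ly6e was -0.39 (adjusted p = 0.00360). The part of interferon signalling in the Ly6e result was not tested.

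Cd68 (chromosome 11, 69664213 to 69666153), a lysosomal membrane glycoprotein of macrophages, measured 144, 145, 144 and 134 CPM in new AML and 118, 118, 150.4 and 116 CPM in aggressive AML. Aggressive AML replicate 3 stood above all new AML libraries, and the other 3 lay below them. The log2 fold change of -0.17 was not called (95% interval -0.36 to 0.02, edgeR adjusted p = 0.193), but without aggressive AML replicate 3 it was -0.27 with an adjusted p of 0.0183.

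**Figure D2:**
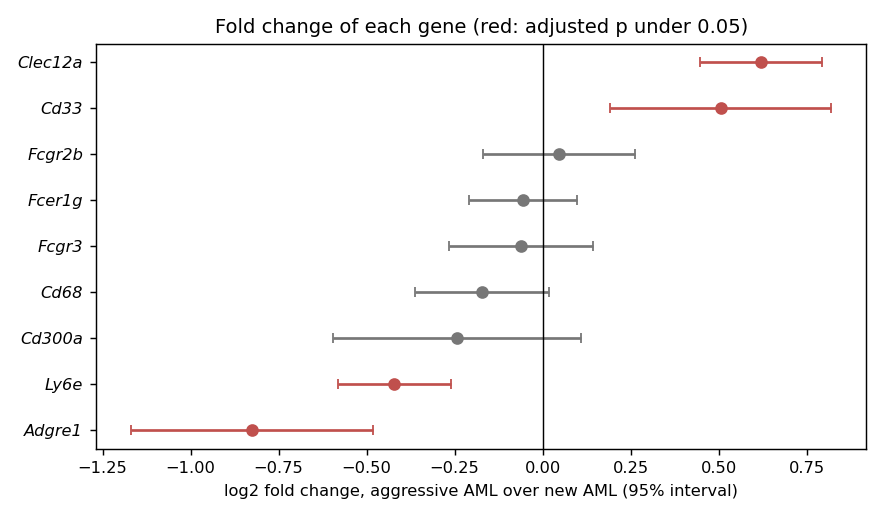
Points give the log2 fold change of aggressive AML over new AML from edgeR (horizontal axis) for each of the 9 genes and bars give its 95% interval. The intervals of the 4 called genes (red) leave out 0, and those of the other 5 (grey) include it. Points of the called genes run from -0.83 for Adgre1 to 0.62 for Clec12a.

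Levels between genes were compared on the scale of CPM per kilobase of merged exon (GENCODE M21). Merged exons join the annotated transcripts of a gene, 7 for Fcgr2b (5790 bases) and 4 for Fcgr3 (1736 bases). Which transcripts the cells used was not measured, so the order between genes also depends on this choice of length. In new AML the order was Ly6e (383), Fcer1g (273), Cd68 (113), Fcgr3 (97.2), Clec12a (78.8), Adgre1 (25.7), Fcgr2b (18.2), Cd33 (17.0) and Cd300a (5.97). The ranges over the 4 libraries overlapped between the neighbours Cd68 and Fcgr3, Fcgr3 and Clec12a, Adgre1 and Fcgr2b, and Fcgr2b and Cd33. The order of these neighbours is not settled even on this scale. In aggressive AML, Clec12a took rank 3 at 121 CPM per kilobase and Cd33 took rank 6 at 24.1, while Adgre1 took rank 8 at 14.5. Within that group the range of Clec12a still overlapped that of Cd68, and the range of Cd33 overlapped that of Fcgr2b (18.8).

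**Figure D3:**
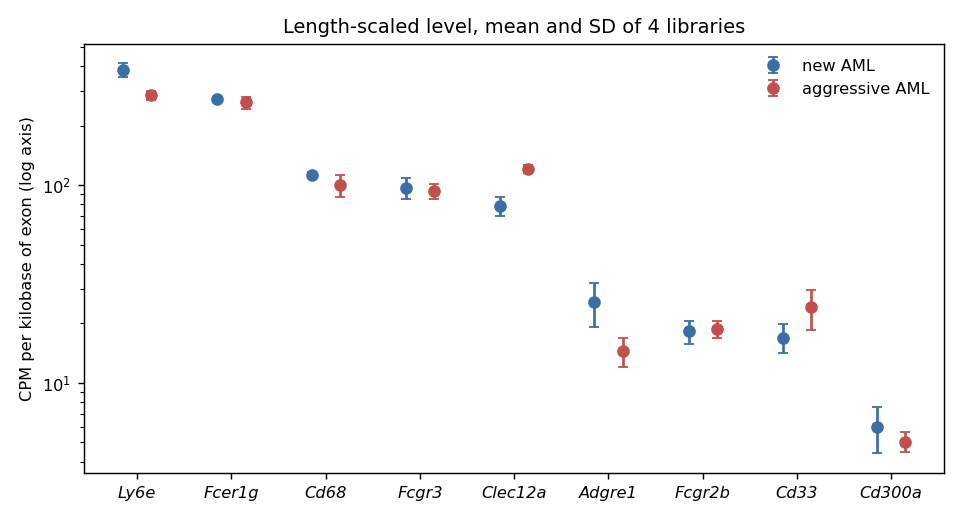
Points give the mean CPM per kilobase of exon (vertical log axis) of new AML (blue) and aggressive AML (red) and bars the SD of 4 libraries, with genes ordered by their new AML level. Ly6e is highest at 383 in new AML and Cd300a lowest at 5.97, and the bars of the groups stand apart for Clec12a, Adgre1 and Ly6e.

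The genes around these receptors were described from lists of general knowledge. Of 37 tested genes of Fc receptor signalling, which run from Src family kinases to phosphatases and the actin machinery of uptake, 14 fell, 0 rose and 23 were not called (median log2 fold change -0.16). Among those that fell were the Src family kinase Fgr (6.61 to 2.93 CPM) and the phosphoinositide 3-kinase subunits Pik3r5 (26.4 to 9.30 CPM) and Pik3cd (298 to 189 CPM). Syk, the kinase that binds the phosphorylated gamma chain, did not pass the test (320.0 to 294 CPM, log2 fold change -0.12, edgeR adjusted p = 0.211) although its groups did not overlap. Tyrobp, an adaptor of the same kind as Fcer1g, did not pass it either (456 to 431 CPM, edgeR adjusted p = 0.470).

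Among other Fc receptors, 5 of 14 listed genes were tested and 1 was called. Fcgrt, the neonatal Fc receptor that recycles IgG and albumin, fell from 8.50 ± 2.32 to 2.83 ± 0.780 CPM (SD, n = 4). Fcgr4, another activating IgG receptor that pairs with Fcer1g, was low in both groups at 5.01 ± 1.62 and 4.28 ± 0.924 CPM and was not called (adjusted p = 0.624).

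Relatives of Cd33, Cd300a and Clec12a in the list of Siglec, CD300 and paired receptors went both ways, with 4 of 28 tested genes higher, 12 lower and 12 not called (median log2 fold change -0.40). The lectin receptor Clec7a, which binds beta-glucan, fell from 53.9, 98.1, 83.4 and 109.6 CPM to 34.7, 23.9, 28.4 and 32.9 CPM, while Siglece fell from 6.12 to 2.71 CPM and Clec2d from 43.2 to 17.4 CPM. Siglech was at 5.59 CPM in new AML and 0.449 CPM in aggressive AML. Those that rose were Clec4d (16.5 to 34.3 CPM), Clec10a (11.5 to 16.9 CPM), Trem1 (17.2 to 25.1 CPM) and Clec4e (76.5 to 100.8 CPM). The CD300 relative Cd300lb fell (log2 fold change -0.51), and Cd300lf (10.6 to 8.17 CPM, edgeR adjusted p = 0.216) was not called.

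Monocyte and macrophage markers other than Adgre1 and Cd68 gave 15 lower, 1 higher and 8 not called among 24 tested genes, with a median log2 fold change of -1.01. Csf1r, the receptor for macrophage colony-stimulating factor, fell from 152, 174, 137 and 202 CPM in new AML to 50.8, 42.3, 55.0 and 56.7 CPM in aggressive AML. The integrin Itgax fell from 40.2 to 10.7 CPM, Ms4a4c from 32.7 to 8.46 CPM and Lyz1 from 6.25 to 2.03 CPM. The marker that rose was Adgre5 (CD97), an adhesion receptor of the same family as Adgre1, from 165 to 214 CPM. Ly6c2, the antigen of classical monocytes, averaged 1727 ± 387 and 2067 ± 72.8 CPM and was not called (edgeR adjusted p = 0.134).

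The lysosomal list, to which Cd68 is related by its place in the cell, had 4 genes higher, 8 lower and 14 not called of 26 (median -0.13). The cysteine proteases Ctss (-1.10) and Ctsh (-0.93) fell and Ctsl rose (0.69), while the major lysosomal membrane protein Lamp1 was at 651 and 646 CPM and was not called (edgeR adjusted p = 0.923). The Ly6 and uPAR family, to which Ly6e belongs, had 1 gene higher and 2 lower of 7 tested. Plaur rose from 32.3 to 50.4 CPM, and Ly6c1 was not called (0.02).

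**Figure D4:**
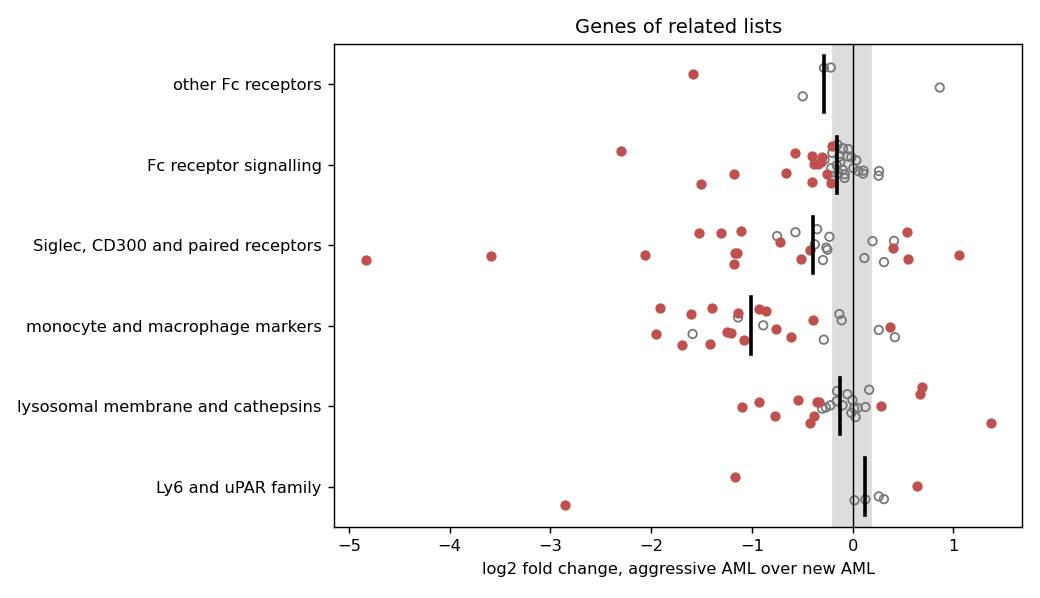
Each point is a tested gene of 6 related lists at its log2 fold change of aggressive AML over new AML (horizontal axis), filled red where called and open where not, with the list median as a black bar and the middle 50% of all tested genes as a grey band. Monocyte and macrophage markers lie lowest, with a median of -1.01, and Fc receptor signalling has a median of -0.16.

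Markers of other blood cells were measured because the GFP gate could hold other cells. Few T cell (2 of 9), B cell (2 of 8) and NK cell (1 of 9) genes were tested. Summed over the listed genes with a row (4 for B cells), levels were at most 21.4, 44.4 and 7.92 CPM in any library. Of the T cell genes 1, Bcl11b, was called higher (5.32 ± 1.07 to 12.2 ± 6.63 CPM), with overlapping groups. Erythroid markers had 3 lower of 9 tested and megakaryocyte markers 0 called of 3, with 2 at an unadjusted p under 0.05 in edgeR. Neutrophil markers had 9 lower and 1 higher of 14 tested, with a summed level of 473 to 693 CPM in new AML and 284 to 386 CPM in aggressive AML. Mast cell and basophil markers had 1 higher of 5 tested, Mcpt8 (27.9 to 77.8 CPM), and dendritic cell markers 4 lower of 7 tested. The part of these cells in the results for Adgre1, Clec12a or Cd33 was not tested.

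The genes whose profile over the 8 libraries came nearest to each called gene were found by the root mean square difference of centred log2 CPM among 10305 genes with a mean of at least 5 CPM. Nearest to Clec12a were Pygl (0.0669), Ankrd28 (0.0788) and Pde1b (0.0928), and nearest to Cd33 were Syne1 (0.117), Vasn (0.120) and A530010L16Rik (0.122). Nearest to Adgre1 were Sh2d1b1 (0.119), Dstyk (0.121) and Ypel3 (0.142). Ly6e lay nearest to Tapbp (0.0684), H2-D1 (0.0704) and Slc4a8 (0.0764), of which Tapbp and H2-D1 act in antigen presentation by MHC class I. Such nearness is a description of these 8 libraries, since all of these genes share the difference between the groups.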

How the data were processed

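RNA-seq was deposited for 4 new AML and 4 aggressive AML libraries. The authors purified poly-A RNA, aligned paired-end reads to mm10 with HISAT2, counted reads per gene with Rsubread and removed genes under 1 CPM. The values deposited by the authors are whole-number counts, with unequal totals, although the name given to the table says CPM, and they entered the fit as raw counts. Groups and replicate numbers came from the sample labels. A gene was tested if 4 or more libraries reached 1 CPM (12494 of 12823 rows), with edgeR 4.0.16 (R 4.3.3), TMM scaling, the quasi-likelihood test and Benjamini-Hochberg adjustment. CPM values carry the TMM factors (0.986 to 1.01). limma 3.58.1 and DESeq2 1.42.0 served as alternatives. Within groups, all 12 pairs of libraries differed beyond sampling noise (chi-square per degree of freedom 4.04 to 10.9), so none was counted as a duplicate. At these depths 1 count equals 0.103 to 0.128 CPM, and intervals cover the fitted error only. The fit was tested on simulated data. Columns of no sample were not present.

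The members and lists were chosen with earlier results of these data known, so no p was adjusted over a list alone. The named genes are the members, the called genes of each list with the largest absolute fold change whose larger group mean was 5 CPM or more (at most 4 in each direction, of which a part is given), and the 3 nearest profiles of each called member. Syk, Tyrobp, Fcgr4, Cd300lb, Cd300lf, Ly6c1, Ly6c2 and Lamp1 were chosen after their values were seen. The planned ratio of Fcgr1 to Fcgr2b was not computed, because Fcgr1 was not analysed here.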

Additional observations from a re-analysis of the deposited data

Results flagged for a closer look

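Among 22 sets of 4 libraries (9 genes and 2 ratios in each group), 3 held a library that stood far from the other 3 by Dixon's test, where chance gives about 1 in 20. Fcgr2b was at 125 CPM in aggressive AML replicate 3 and between 103 and 104 CPM in the other 3. Cd68 was at 150.4 CPM in the same library and between 116 and 118 CPM in the other 3. In new AML, Cd68 was at 134 CPM in replicate 4 and between 144 and 145 CPM in the other 3.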

How the results depend on the processing

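Under 16 alternatives (other scalings, DESeq2, limma, limma-voom, other filters, the replicate block and each library left out), Clec12a, Adgre1 and Ly6e kept direction and call, with log2 fold changes of 0.56 to 0.67, -0.95 to -0.71 and -0.48 to -0.39. When each library was left out in turn, the number of members called higher ranged from 1 to 2, since Cd33 was lost in 4 of the 8 fits. The log2 fold change of Fcgr2b ranged from -0.033 to 0.098 when a library was left out (0.05 in all), negative at -0.033 without new AML replicate 1 and at -0.025 without aggressive AML replicate 3, uncalled as before. The log2 difference of the ratio of Fcer1g to Fc gamma alpha chain counts, 0.00 in all libraries, ranged from -0.056 to 0.078 over the 8 fits. The cause was not tested. The number of genes called over the whole table was 1534 to 2538 against 2296, and among the counts of calls only that of members called higher moved by over 1.5 times. Uncalled values near 0 moved by more than that when a library was left out. The median over members ranged from -0.14 to -0.017, Fcgr3 from -0.14 to -0.0055 and Fcer1g from -0.092 to -0.015. Cd68 ranged from -0.27 to -0.13 and Cd300a from -0.36 to -0.092. Among these genes, only Cd68 changed its call. The ratio of Fcgr3 to Fcgr2b ranged from -0.17 to -0.053. Ratios could not change their call, because the smallest permutation p with a library left out is 0.0571. Replicate numbers are shared only as numbers: same-numbered libraries had correlations of deviations of 0.12, -0.02, -0.06 and 0.18, and 2 of 4 matched their own number best. With the replicate block, the 4 called members were called, Cd33 at 0.49 and Adgre1 at -0.81. The paired ratio of Fcgr3 to Fcgr2b was -0.11 (exact sign-flip p = 0.25). With only 16 sign flips, this paired test cannot give a p under 0.05 whatever the values, so it cannot decide on a shift. Ratios per kilobase shift both groups by a constant and were not run.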

Other observations

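Within new AML, replicates 2 and 4 both lay above replicates 1 and 3 in 6 of the 9 genes (Fcgr3, Fcer1g, Clec12a, Cd33, Adgre1 and Cd300a), a pattern chosen after the values were seen that holds for 21% of all tested genes. It also held for 16 of 24 monocyte and macrophage markers and 9 of 14 neutrophil markers, and for 0 of 33 interferon response genes. Within aggressive AML, replicate 3 was the highest library in 7 of the 9 genes and in 19 of 26 lysosomal genes, against 30.2% of all tested genes. These orders within a group were not tested.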
